A study of Ambystoma mexicanum with 12 samples.

Results

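The genes described here are 60 axolotl genes that were lower in distal forelimb blastemas treated with 1 uM talarozole than in blastemas of the other 3 groups, chosen by their measured levels out of 99081 identifiers. They were picked as genes with lower values at the high dose alone, and not all were lower there library by library. The rule ranked genes by this separation, so the counts of members that follow describe the choice and do not test it. For 19 of the 60, every library at 1 uM lay below every one of the other 9 libraries. Another 34 were at 0 counts in all 3 libraries at 1 uM and also at 0 in 2 to 6 of the other 9 libraries. In the remaining 7, libraries at 1 uM overlapped with some of the other 9. The same rule was also applied to 8 libraries at a time, and picked mostly other genes: 6, 7 and 12 of the 60 were members. In the libraries left out, these genes showed no fall in their median from DMSO distal to 1 uM. The medians were 0, 0.22 and 0 in L (the log2 level), against 0.61, -0.11 and -0.01 over all genes. Their median difference from 0.1 uM to 1 uM was below 0 in 2 of 3 rounds. The 1 uM library was the lowest of 4 for 26.7% of the chosen genes against 13.5% of all genes. By count, another group's library was the lowest more often when replicates 2 and 3 were read. The set of all genes was not matched to the chosen genes in level or spread, and a shared lowest value was counted for no library. The DMSO distal library was also the lowest for a larger share of the chosen genes than of all genes when replicates 2 and 3 were read.

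After amputation of a salamander limb, progenitor cells gather under the wound skin as a blastema, from which the lost segments regrow. Retinoic acid, a derivative of vitamin A, acts through nuclear receptors that switch target genes on or off, and in the regenerating salamander limb an excess of it makes distal cells behave like cells nearer the shoulder. The CYP26 enzymes break retinoic acid down, and talarozole (TAL) inhibits them, so that retinoic acid made by the animal persists. The question behind the design was what more endogenous retinoic acid does to position along the limb, from shoulder to hand.

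All animals were white (d/d) Ambystoma mexicanum, 3 months old and 5 cm long, per the labels. The 4 groups were distal blastemas (amputation through the carpus) in the solvent DMSO, distal blastemas in 0.1 uM TAL, distal blastemas in 1 uM TAL, and proximal blastemas (amputation through the upper humerus) in DMSO. TAL or DMSO was given in the water from day 4 for 7 days, and tissue was frozen 14 days post amputation, so every group, controls included, had been exposed to DMSO and had then been without treatment for some days. Each group had 3 RNA libraries, each a pool of 3 blastemas. Pools average over animals, and the labels do not say whether the pools came from separate animals, so the spread between libraries may be partly technical. In pooled tissue, fewer cells of a type and less RNA per cell cannot be told apart.

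Total estimated counts ranged from 8409618 to 13937318 per library. The 1 uM libraries were the deepest, at 11977855 to 13937318. The part of depth in the results was not tested. A floor of 3 counts corresponds to 0.215 to 0.357 CPM, counts scaled to library size in the usual way, depending on the library. The files pair identifiers with no gene names, and a search of the RefSeq gene list used here found 0 of them. No role, sequence or position can therefore be given for any member, and the tissue could not be checked against markers.

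The rule started from 56805 identifiers with the prefix AMEX60DD, leaving out those with the prefix AMEX60DDU. Of these, 21835 had at least 10 counts in at least 3 libraries. Levels were expressed as L, the log2 of CPM plus 0.5. In 972 genes the group mean of L was at least 1 lower at 1 uM TAL than in DMSO distal blastemas. In 226 of the 972 the proximal DMSO mean was within 0.5 of the distal DMSO mean, and in 124 of those the 0.1 uM mean was as well. The 124 were ranked by the gap in L between the lowest of the other 9 libraries and the highest 1 uM library, and the first 60 were taken. Every library of every group thus entered the choice. The differences below describe what the rule selected, and no test is attached to them.

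Over the 60 members the median difference in L, 1 uM TAL minus DMSO distal, was -1.26, with a range from -3.52 to -1.01. Over all 21835 genes that passed the count filter it was 0.15. The members' median difference was -1.12 against 0.1 uM TAL and -1.14 against DMSO proximal blastemas, where the median over all genes was 0.20 and 0.14. By the rule, the 0.1 uM and proximal groups lay close to DMSO distal, with median differences of -0.23 and -0.17 in L. Members were expressed at low levels, with a median of 1.66 CPM over the other 9 libraries against 3.84 CPM over all genes that passed the filter. The range among members was wide, from 0.745 to 83.9 CPM.

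**Figure D1:**
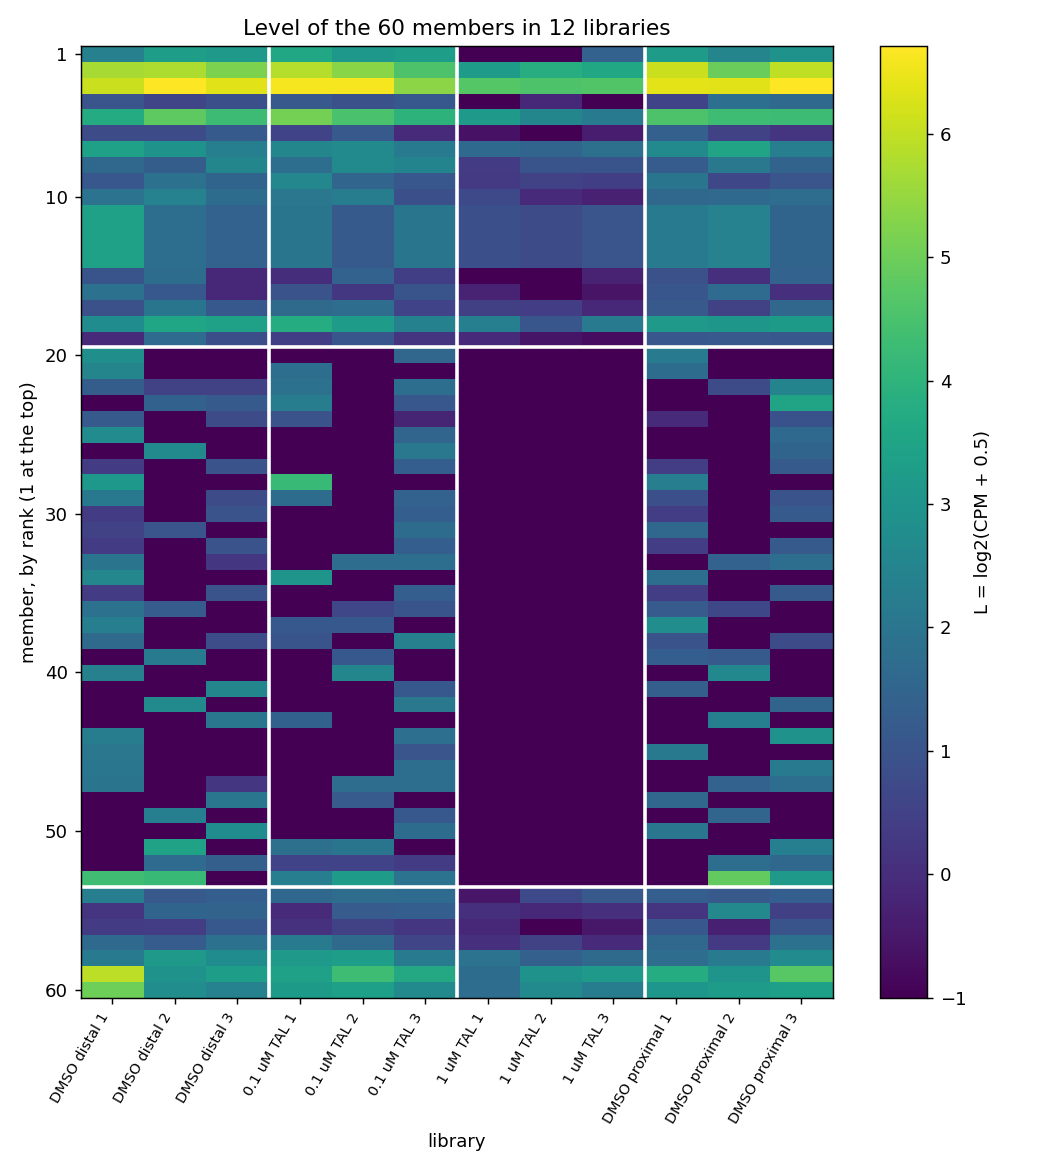
Level of each member (rows, ordered by gap, rank 1 at the top) in each library (columns, 3 per group), as L = log2(CPM + 0.5). White lines part the groups, and the 19 members without overlap (top), the 34 at 0 counts throughout 1 uM TAL (middle) and the 7 that overlap (bottom). The dark cells of the middle block outside 1 uM TAL are libraries of other groups in which the same genes are also at 0.

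The 19 members without overlap were detected in all 9 other libraries by construction, because a gap above 0 requires counts there. Such a separation below the other 9 libraries occurred in 70 of the 21835 genes (0.321%) when the group means were left unrestricted, and the 3 conditions on the means reduced this to 19 genes (0.087%). The unrestricted count depended on the scaling, with 98 genes (0.449%) under TMM and 179 (0.820%) under DESeq2 size factors. With the conditions these became 20 and 24. The gap exceeded 0.5 in L in 5 of the 19, and its median was 0.16, so most of the 19 were separated narrowly. The median difference from DMSO distal in these 19 was -1.37 in L. Of the 19, 10 had at least 10 counts in every library, and 5 had a 1 uM library at 0 counts. Among the 10 were 4 with the same values as each other in every library.

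AMEX60DD031927 had the highest level of all members and the third-ranked gap. Its levels were 67.7, 102.9 and 81.2 CPM in DMSO distal libraries, 96.5, 97.1 and 40.7 CPM at 0.1 uM TAL and 82.8, 81.7 and 104.3 CPM in DMSO proximal libraries. At 1 uM TAL it was at 25.04, 22.9 and 24.3 CPM. The 1 uM libraries lay close together and below all others, and replicate 3 at 0.1 uM was the nearest of the 9. DMSO distal libraries averaged 83.9 ± 17.7 CPM and 1 uM libraries 24.1 ± 1.06 CPM (SD, n = 3 each), a difference of -1.76 in L.

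AMEX60DD028505 had the second-ranked gap, 0.76 in L. It was at 51.7, 53.3 and 36.2 CPM in DMSO distal libraries, 57.7, 39.9 and 23.03 CPM at 0.1 uM TAL, and 68.05, 30.2 and 61.8 CPM in DMSO proximal libraries. At 1 uM TAL it was at 8.97, 13.4 and 11.7 CPM, a difference of -1.999 in L from DMSO distal. The groups did not overlap with 1 uM, while the other 3 groups overlapped with each other, with replicate 3 at 0.1 uM again the lowest of the 9.

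AMEX60DD018510 had the largest gap, 0.93 in L, and one of the smallest spreads over the other 9 libraries (SD 0.40 in L). It was at 4.64, 9.45 and 8.32 CPM in DMSO distal libraries, 11.9, 8.15 and 9.29 CPM at 0.1 uM TAL, and 9.05, 5.22 and 7.06 CPM in DMSO proximal libraries. At 1 uM TAL it was at 0, 0 and 2.19 CPM, so replicates 1 and 2 were without counts and replicate 3 held 26.3 counts. The difference of -3.13 in L thus rests on 1 uM libraries that themselves differed, with an SD of 1.40 in L.

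The other members with a gap over 0.5 were AMEX60DD009590 and AMEX60DD050556, named after their values were seen. AMEX60DD050556 was at 12.9 to 27.2 CPM in DMSO distal, 15.2 to 34.0 CPM at 0.1 uM TAL, 19.2 to 22.9 CPM in DMSO proximal and 4.08 to 8.24 CPM at 1 uM TAL libraries. AMEX60DD009590 was a gene of low level, at 1.01 to 1.55 CPM in DMSO distal libraries, and had 0, 5.49 and 0 counts at 1 uM TAL. Its separation was therefore one between about 10 to 26 counts in the other libraries and fewer than 6 counts at 1 uM.

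**Figure D2:**
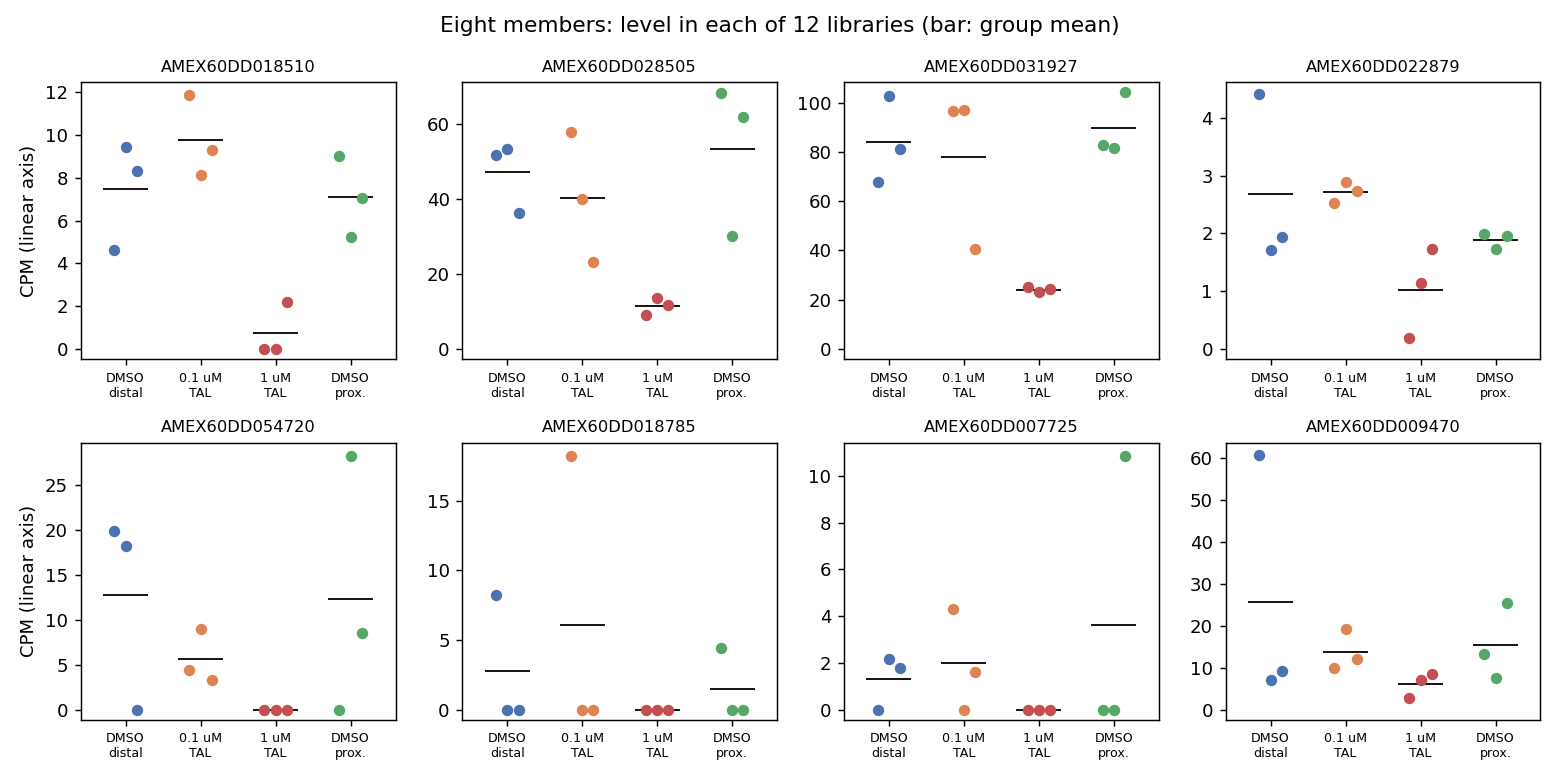
CPM of 8 members in each library, on linear axes that differ between panels; points are libraries and bars are group means of 3. The first 3 panels show members in which all 1 uM libraries lie below the other 9. In AMEX60DD054720, AMEX60DD018785 and AMEX60DD007725 the 1 uM libraries are at 0 and so are libraries of other groups. In AMEX60DD009470 DMSO distal replicate 1 is the highest library and lies far above the rest of its group.

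The 34 members at 0 counts in all 3 libraries at 1 uM were sparse in the other groups too. Their gap was 0 by construction, because the lowest of the other 9 libraries was also at 0. A median of 5 of the other 9 libraries were at 0, and 31 of the 34 had at least 1 library at 0 in every group. DMSO distal libraries held counts in all 3 replicates for 1 of the 34, AMEX60DD007442, which was named for this after its values were seen. For 19 of the 34, a lone DMSO distal library held all of that group's counts. None of these 34 could be described as lowered at 1 uM alone library by library, since a 0 at 1 uM matched a 0 elsewhere.

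AMEX60DD054720 had the largest difference of all members, -3.52 in L. It was at 19.9, 18.2 and 0 CPM in DMSO distal libraries, 4.42, 8.98 and 3.33 CPM at 0.1 uM TAL, 0, 28.2 and 8.57 CPM in DMSO proximal libraries and 0 in all 3 at 1 uM TAL. DMSO distal replicate 3 and DMSO proximal replicate 1 were thus at 0 like the 1 uM libraries. Against a floor of 3 counts over the 1 uM group (0.0770 CPM) the DMSO distal mean was at least 165-fold higher, a bound that covers counting error only.

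AMEX60DD018785 was at 8.22, 0 and 0 CPM in DMSO distal libraries, 18.2, 0 and 0 CPM at 0.1 uM TAL, 4.46, 0 and 0 CPM in DMSO proximal libraries and 0 throughout 1 uM TAL. Counts were present in replicate 1 of each of the other groups, and 6 of the other 9 libraries were at 0.

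Members nearest the median level were of the same sparse kind. AMEX60DD007725 was at 0, 2.14 and 1.78 CPM in DMSO distal libraries, 4.30, 0 and 1.62 CPM at 0.1 uM TAL and 0, 0 and 10.9 CPM in DMSO proximal libraries. AMEX60DD053653 was at 0, 2.76 and 1.997 CPM in DMSO distal, 0.966, 0.955 and 0.792 CPM at 0.1 uM TAL and 0, 2.92 and 2.45 CPM in DMSO proximal libraries. Both were at 0 in all 3 libraries at 1 uM.

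At 1 uM TAL, 35 to 39 of the 60 members were at 0 in a library, and in the other groups 9 to 24 were, a share above that of all genes that passed the count filter (6.51 to 10.7%) in each library. Being at 0 in all 3 libraries of a group was not more common at 1 uM than elsewhere. It applied to 354 of the 21835 genes at 1 uM TAL, 443 in DMSO distal, 510 at 0.1 uM TAL and 568 in DMSO proximal blastemas. The 1 uM libraries, deepest of the 4 groups, had the lowest number.

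**Figure D3:**
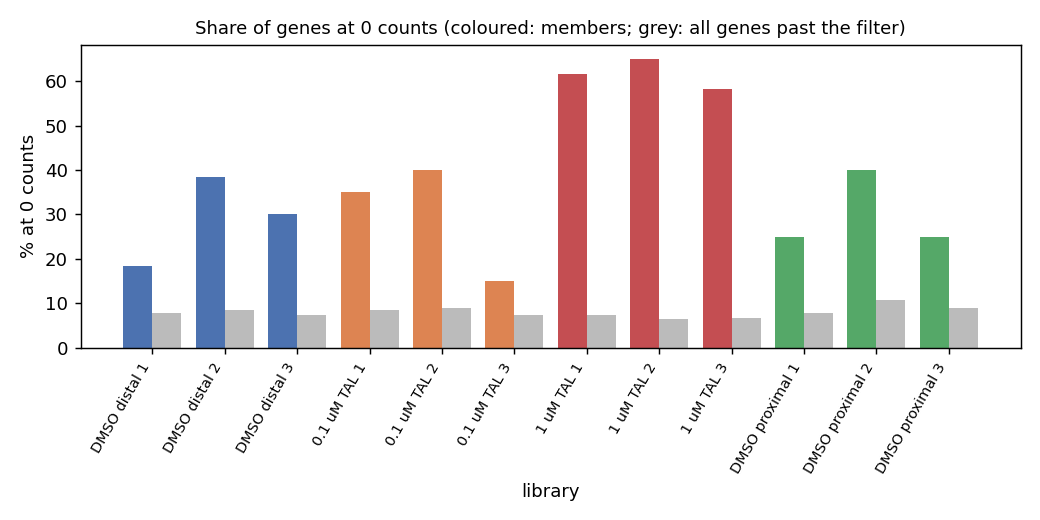
Percentage of the 60 members at 0 counts in each library (coloured by group) beside the percentage of all 21835 genes past the count filter (grey). At 1 uM TAL 35 to 39 members are at 0 and in the other libraries 9 to 24, while the grey bars stay between 6.51 and 10.7%.

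The 7 members whose libraries overlapped lay near the end of the ranking. AMEX60DD022879 had the smallest spread of all members over the other 9 libraries, with an SD of 0.37 in L. It was at 4.40, 1.70 and 1.94 CPM in DMSO distal libraries, 2.52, 2.90 and 2.73 CPM at 0.1 uM TAL, 1.99, 1.73 and 1.95 CPM in DMSO proximal libraries and 0.192, 1.14 and 1.73 CPM at 1 uM TAL. Replicate 3 at 1 uM lay just above replicate 2 of DMSO distal and of DMSO proximal, and below every library at 0.1 uM. The fall in the 1 uM group mean rested mostly on its replicate 1.

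At the edge of the choice, the members ranked 59 and 60 were AMEX60DD009470 and AMEX60DD038944, with gaps of -0.23 and -0.24 in L. The genes ranked 61 and 62, just outside, were AMEX60DD007286 and AMEX60DD025860, with gaps of -0.26 and -0.29, so no break in the ranking marked the limit at 60. AMEX60DD009470 was at 60.8, 7.11 and 9.27 CPM in DMSO distal libraries and at 2.83, 7.11 and 8.45 CPM at 1 uM TAL, and AMEX60DD038944 was at 31.5, 6.40 and 4.85 CPM in DMSO distal and 2.86, 5.81 and 4.28 CPM at 1 uM TAL libraries. In both, DMSO distal replicate 1 was far above its group and the other DMSO distal libraries were near the 1 uM libraries. In AMEX60DD038944 all libraries at 0.1 uM TAL (5.84 to 9.82 CPM) and in DMSO proximal (7.81 to 9.64 CPM) lay above those at 1 uM. In AMEX60DD009470 the 0.1 uM libraries (10.1 to 19.3 CPM) did so too, while DMSO proximal libraries ranged from 7.53 to 25.6 CPM. Of the genes outside, AMEX60DD025860 was at 17.9, 4.77 and 6.31 CPM in DMSO distal and 0, 3.58 and 5.93 CPM at 1 uM TAL libraries, and AMEX60DD007286 was at 5.20, 4.33 and 7.11 CPM and 3.72, 1.85 and 1.49 CPM.

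The 60 identifiers were not 60 separate measurements. To 2 decimals, 12 of the 60 had the same value as another member in all 12 libraries, against 622 (2.85%) of the 21835 genes that passed the count filter with such a match anywhere in the table. They formed 2 sets of 4 and 2 sets of 2, which left 52 distinct profiles, 16 of them without overlap. AMEX60DD012793 and AMEX60DD014627 belonged to a set of 4 without overlap, at 10.1, 2.93 and 2.19 CPM in DMSO distal and 1.34, 1.24 and 1.55 CPM at 1 uM TAL libraries. AMEX60DD017715 and AMEX60DD019145 belonged to the set of 4 at 0 throughout 1 uM TAL. Genes with the same values cannot be told apart in these data, and their levels are uncertain. Salmon divides reads that match several sequences among them, but whether this gave the same values was not tested.

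Members varied more between libraries of a group than other genes did, and the rule itself bears on this. The 34 at 0 throughout 1 uM TAL had to hold counts in some of the other libraries and none in another. Members were also lower in level than the genes they are compared with. The median SD of L over the 3 libraries was 1.11 among members against 0.38 among all genes that passed the filter in DMSO distal blastemas. It was 1.12 against 0.34 at 0.1 uM TAL and 1.11 against 0.36 in DMSO proximal blastemas. At 1 uM TAL the members' median SD was 0, since most were at 0 counts in all 3 libraries. In the 19 members without overlap the median SD was 0.56 in DMSO distal and 0.32 at 1 uM TAL. Deviations from the group means across the 16 distinct profiles of these 19 had a median Pearson r of 0.04 over 120 pairs (range -0.72 to 0.86). In 23 of the 120 r was above 0.5, a description over 12 shared libraries. The share over pairs of other genes is not given, so nothing is read from this count.

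Single DMSO distal libraries carried much of the difference. DMSO distal replicate 1 was the library with the highest value of all 12 for 16 of the 60 members. These include a set of 4 and a set of 2 with the same values, and the share over all genes is not given here. Without DMSO distal replicate 1, 33 of the 60 members were still at least 1 lower in L at 1 uM, and 10 were not lower at all. Without DMSO distal replicate 2 or replicate 3, 49 were at least 1 lower in either case, and 5 and 4 were not lower. The members not lower at all were those whose DMSO distal counts all lay in the library left out. Leaving out a 1 uM library left 57 to 59 members at least 1 lower. That could not change the difference for the 34 at 0 counts in all 3 libraries at 1 uM. Only 15 of the 60, of which 9 were among the 19 without overlap, kept a difference of at least 1 whichever of these 6 libraries was left out.

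All 60 members were among the 41884 genes tested with edgeR's quasi-likelihood test over the whole table. Identifiers with the prefix AMEX60DDU were not left out here, and the count filter was another one. All genes in these tests are therefore not the 21835 of the rule. At a Benjamini-Hochberg adjusted p under 0.05, 0 members were called lower at 1 uM TAL than in DMSO distal blastemas, where 8 genes in all (0.0191%) were. At an unadjusted p under 0.05, 32 members were lower, against 2.48% of all genes. Against 0.1 uM TAL 0 members were called, with 5 genes (0.0119%) called in all, and 26 members were lower at an unadjusted p under 0.05, against 2.60% of all genes. Against DMSO proximal blastemas 0 members were called, with 0 genes (0.0%) called in all, and 29 members were lower at an unadjusted p under 0.05, against 2.74% of all genes. These comparisons share the 1 uM libraries and chose the members, so nothing is read from the unadjusted counts.

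The DESeq2 Wald test called 9 members lower against DMSO distal, 10 against 0.1 uM TAL and 10 against DMSO proximal blastemas. Over the 72912 genes entered in that test it called 271 (0.372%), 244 (0.335%) and 256 (0.351%) lower. These shares count genes without an adjusted p as not called. Of the 9, 6 were without overlap, AMEX60DD028505, AMEX60DD031927 and AMEX60DD050556 among them, and 3 were at 0 throughout 1 uM TAL. Of these 3, AMEX60DD007725 and AMEX60DD049497 had log2 fold changes of -20.7 and -22.0, sizes that 0 counts at 1 uM cannot measure. Without 1 uM TAL replicate 3, edgeR called 1 member in each of the 3 comparisons, AMEX60DD018510, whose counts at 1 uM were all in that library, among 2, 1 and 1 of 46382 genes called lower. Without 0.1 uM TAL replicate 3 it called 1 member against 0.1 uM, AMEX60DD031927, among 13 of 46221 genes called lower. The members were chosen on these same differences, so none of these calls is an independent test of them.

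The same pattern was then counted with each of the other groups in the place of 1 uM TAL, to see how common it was. Lower values without overlap, with the other 3 group means close together, occurred in 19 genes for 1 uM TAL and in 31 genes (0.142%) for DMSO proximal blastemas. They occurred in 10 genes (0.0458%) for 0.1 uM TAL and in 14 genes (0.0641%) for DMSO distal blastemas, with DMSO proximal as the reference. The count for 1 uM TAL therefore lay within the range of the other groups. With replicate 1, 2 or 3 of the group in question left out, so that 2 libraries had to lie below the rest, the counts were 42, 33 and 39 for 1 uM TAL. They were 151, 62 and 44 for DMSO proximal, 22, 80 and 36 for DMSO distal and 40, 18 and 38 for 0.1 uM TAL. In the opposite direction, higher values without overlap occurred in 108 genes (0.495%) for 1 uM TAL, 7 (0.0321%) for 0.1 uM TAL, 32 (0.147%) for DMSO proximal and 29 (0.133%) for DMSO distal blastemas. The largest gap was 0.93 in L for lower values at 1 uM TAL, against 1.60 at 0.1 uM TAL, 1.68 in DMSO proximal and 1.52 in DMSO distal blastemas.

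**Figure D4:**
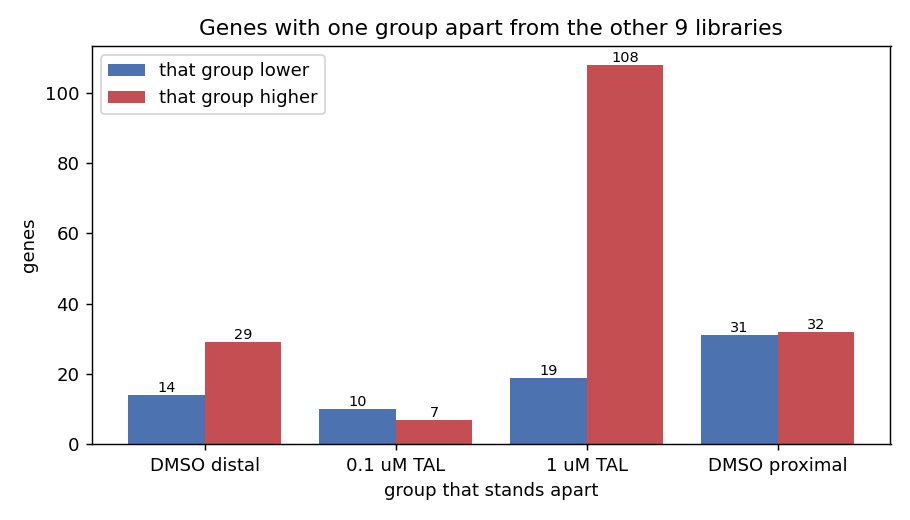
Number of genes (of 21835 past the count filter) in which all 3 libraries of a group lie below (blue) or above (red) the other 9 while the other 3 group means are close together. For lower values 1 uM TAL has 19 genes, between 10 for 0.1 uM TAL and 31 for DMSO proximal; for higher values 1 uM TAL has 108.

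Whether the pattern appears in libraries that did not choose the genes was examined in 3 rounds. In each round the rule was applied to the 8 libraries with other replicate numbers, 60 genes were taken, and the 4 libraries with the remaining number were read. The genes chosen in the 3 rounds included 6, 7 and 12 of the 60 members. In the libraries read, the median difference in L between 1 uM TAL and DMSO distal was 0 for replicate 1, 0.22 for replicate 2 and 0 for replicate 3. Over all genes that passed the filter in the same libraries it was 0.61, -0.11 and -0.01. A median of 0 here reflects genes at 0 counts in both libraries. The chosen genes thus lay below the other genes in replicate 1, above them in replicate 2 and level with them in replicate 3. With TMM scaling the medians were -0.23, 0.25 and 0, against 0.43, -0.01 and 0 over all genes. Between 1 uM and 0.1 uM TAL the chosen genes' median differences were -0.49, -0.46 and 0, against 0.22, 0.10 and 0.24 over all genes, and so lay below the other genes in each round. Between 1 uM TAL and DMSO proximal they were 0, 0.09 and 0, against 0.19, 0.16 and 0.07.

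The 1 uM library was nevertheless the lowest of the 4 for 15, 19 and 14 of the 60 chosen genes. Over all genes the shares were 9.59, 19.2 and 11.5% in the same libraries. Over the 3 rounds together this made 48 of 180 chosen genes (26.7%) against 13.5% of all genes. Genes whose lowest value was shared by libraries, as at 0 counts, were counted for none of them. The set of all genes was not matched to the chosen genes in level or spread. The DMSO distal library was the lowest for 37 of the 180 (20.6%, against 24.9% of all genes), the DMSO proximal library for 34 (18.9%, against 24.8%) and the 0.1 uM library for 21 (11.7%, against 29.9%). These pooled shares hide differences between rounds. The DMSO distal library was the lowest for 14, 15 and 8 of the 60, against 55.7, 9.14 and 10.2% of all genes. Its share among chosen genes was thus the larger in replicates 2 and 3. The DMSO proximal library was the lowest for 9, 21 and 4, against 9.28, 36.2 and 28.9%, the larger share in replicate 1 alone. The 0.1 uM library was the lowest for 3, 1 and 17, against 18.8, 27.7 and 43.1%, the smaller share in every round. By count, DMSO proximal exceeded 1 uM in replicate 2 (21 against 19), and 0.1 uM did in replicate 3 (17 against 14). For the 1 uM library the share among chosen genes was larger than that of all genes in every round. That did not hold with at least 50 counts required in 3 libraries. There it was the smaller when replicate 2 was read, at 18.3% against 21.8% of all genes. A fall of at least 1 in L from DMSO distal to 1 uM TAL was seen in 12, 16 and 15 of the 60 genes, against 8.002, 6.998 and 6.10% of all genes. A rise of at least 1 was seen in 13, 12 and 13 of the 60, against 22.1, 6.78 and 6.29% of all genes. The 180 were not all separate genes. Some genes were chosen in more than 1 round, and the 60 of each round had 60, 58 and 54 distinct profiles. The rounds also share choosing libraries, so they are not independent of each other, and no p-value was computed.

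**Figure D5:**
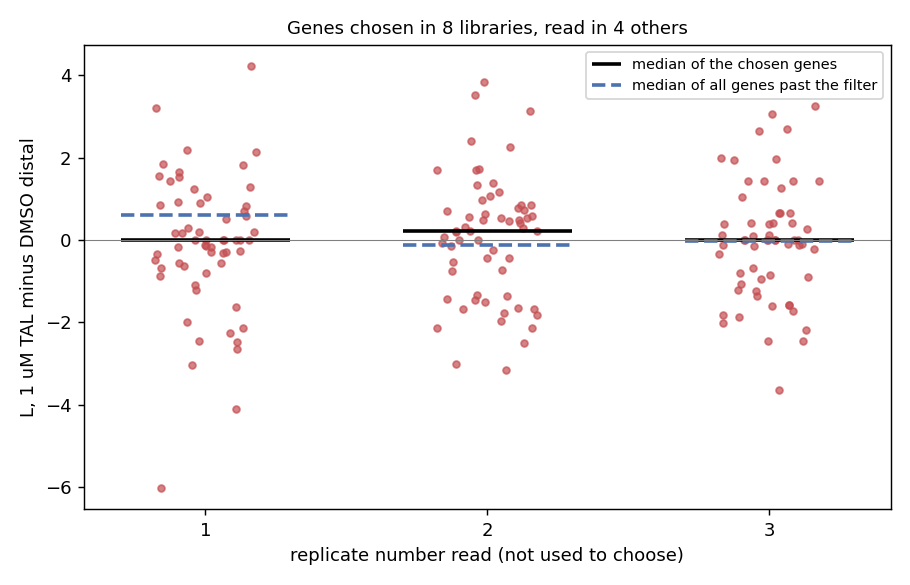
Difference in L between the 1 uM TAL and the DMSO distal library of the replicate number on the x axis, for the 60 genes chosen in the 8 libraries with other numbers (points). Black lines mark the chosen genes' medians of 0, 0.22 and 0, and dashed blue lines the medians over all genes past the filter of 0.61, -0.11 and -0.01; points lie on both sides of 0 in every round.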

How the data were processed

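RNA sequencing was done on 12 libraries with 150-bp reads. The submitters' processing notes name Trimmomatic 0.38 and Salmon 0.13.1, with the settings, index and annotation not given in the sources used here. The values the authors deposited are estimated counts per gene, with 1 column per library, and are not scaled to depth. The sample titles gave each library's group and replicate number. Another 3 columns of the table matched no sample in the labels and were left out.

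L was computed as log2(CPM + 0.5), with CPM from the column totals and without rounding. For tests, estimated counts were rounded to whole numbers, filtered with filterByExpr, scaled with TMM factors and fitted for all 12 libraries in 1 model with edgeR 4.0.16 (glmQLFit, glmQLFTest, R 4.3.3). DESeq2 1.42.0 was an alternative. Floors use 3 counts and, like all bounds given, cover counting error only. The code was tested on simulated data. Alternatives were other scalings, pseudocounts, count filters and tests, the replicate number as a block, and leaving out each library.

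The members and the rules were chosen with earlier results of these data known. Identifiers named in the text were taken by rule, at most 2 for each description: the largest gap, level, fall and smallest spread, the median level, 0 counts at 1 uM, and the ranks around the limit. Exceptions are said to have been named after their values were seen, as were the sets of identical values and the genes called by alternatives.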

Additional observations from a re-analysis of the deposited data

How the results depend on the processing

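The reported values were a median difference of -1.26 in L, 60 members, 0 members called in each comparison, 19 genes with the pattern and no overlap, and 48 of 180 genes in the libraries not used to choose. The cause of each change below was not tested. With DESeq2 size factors, pseudocount 0.1 and pseudocount 2 the median difference was -1.33, -1.97 and -0.66, and leaving out libraries gave -1.57 to -1.13. Choosing again brought back 28 of the 60 members with pseudocount 0.1, 9 with pseudocount 2, 11 with at least 50 counts in 3 libraries, 54 with TMM scaling and 50 with DESeq2 size factors. With pseudocount 2 or the 50-count filter 40 genes qualified, so that fewer than 60 could be taken. Without a library in turn it brought back 17 to 45 members, fewest without DMSO distal replicate 1 or replicate 2. The count of 19 genes became 7 with pseudocount 2 and 7 with the 50-count filter, and 12 to 42 without a library, with the low end without DMSO distal replicate 3 (12) and the high end without 1 uM TAL replicate 1 (42), replicate 3 (39) or replicate 2 (33), where 2 libraries have to lie below the others. With proximal lower the count stayed above that with 1 uM lower under both scalings, both pseudocounts and the 50-count filter. The 48 genes became 29 with the 50-count filter, where 110 genes were read. With that filter the 1 uM share among chosen genes was below that of all genes when replicate 2 was read (18.3 against 21.8%).

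The DESeq2 Wald test called 9, 10 and 10 members against DMSO distal, 0.1 uM TAL and DMSO proximal. Of the 72912 genes entered, with or without an adjusted p, 271, 244 and 256 were called lower. Leaving out libraries gave 0 to 1 member in each, among 0 to 13 genes called lower of 46221 to 47121 tested. With the replicate block 0, 0 and 0 members were called, and 0 of all 41884 genes were called in any of these comparisons. At an unadjusted p under 0.05, 27, 21 and 18 members were lower, against 1.75, 1.92 and 1.87% of all genes. These comparisons had chosen the members. Same-numbered libraries did not deviate together, with a mean correlation of -0.00448 over 18 pairs, so the numbers were not taken as pairs. With DESeq2 size factors the median log2 fold change over all genes, 1 uM TAL against DMSO distal, moved from -0.04 to -0.14. There 0 members were called, among 10, 7 and 0 of 41884 genes called lower against DMSO distal, 0.1 uM TAL and DMSO proximal. Counting identifiers with the same values once, an alternative added after seeing the data, gave 16 genes with the pattern. At these depths 34 members are at 0 counts throughout 1 uM TAL, where a fold can be given as a bound alone.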
